A study of Rattus norvegicus with 61 samples.

Results

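The transcripts described here are those that stood higher than in control rat livers after both of 2 liver toxicants, acetaminophen (APAP) and 4,4'-methylene dianiline (MDA). There were 150 such transcripts (members) among the 31196 of the deposited table, of which 13482 had a mean of at least 1 CPM (estimated counts per 1000000 of the sample's total) over the 15 livers. For each of these 13482, the log2 ratio of the group means, after adding 1 CPM to each mean, was taken for APAP against Ctrl and for MDA against Ctrl. The median over all 13482 transcripts, 0.61 for APAP and 0.46 for MDA, was then subtracted. Both centred ratios were at least 0.5 in 800 transcripts, and the members were the 150 whose smaller ratio was the highest. They are numbered below by that rank. The livers themselves chose the members, so the liver values are a description and no test is drawn from them. The sorted immune cells, spleen and blood samples took no part in the choice.

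Male wild-type Sprague-Dawley rats, bought at 6 weeks of age, were fasted overnight and dosed by gavage. They received APAP at 3 g/kg (5 livers), MDA at 300 mg/kg (5 livers) or the vehicle, 0.5% methylcellulose (Ctrl, 5 livers), and the livers were taken 24 h later. The livers were flushed through the inferior vena cava, and RNA came from a piece of the largest lobe, so all cell types of that piece are included. Untreated male rats of the same strain gave 6 samples each of B cells, natural killer (NK) cells, CD4 T cells (CD4T) and CD8 T cells (CD8T) sorted from spleen. Neutrophils (Neu) and monocytes (Mon) were sorted from blood, again with 6 samples each. A further 5 samples held spleen cells and 5 held whole blood cells (WBC), both freed of erythrocytes. The total estimated count lay between 10484912 and 14146402 in the livers and between 3429971 and 13587693 in the immune samples, with neutrophil replicate 5 as the shallowest. The labels do not tie samples to animals, so p-values measure only the spread between these samples.

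APAP is turned by liver enzymes into a reactive quinone imine that depletes glutathione and kills hepatocytes around the central vein. MDA, an aromatic amine used in making polymers, injures the bile duct epithelium as well as the hepatocytes near it. Injury of either kind is known to raise stress response, acute phase and repair transcripts in liver cells, and to bring neutrophils and monocytes into the tissue. In a bulk liver sample a higher level can come from more cells of a type or from more RNA per cell, and these cannot be told apart. The table names transcripts by Ensembl identifier, and 0 of the 31196 identifiers matched the 47357 rat genes of the reference list used here. The members are therefore given by rank, and what their genes do is not described.

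Together the members took 0.350% ± 0.0152 (SD, n = 5) of the total count in Ctrl livers, 3.62% ± 0.517 in APAP livers and 2.06% ± 0.245 in MDA livers. The ranges were 0.337% to 0.375%, 2.83% to 4.13% and 1.69% to 2.30%, so the groups did not overlap. The choice of members makes treated livers above Ctrl likely. It does not set which toxicant stands higher, and the gap between APAP and MDA livers was not tested. A few abundant transcripts carried much of this share. Without the 3 members of highest level in each liver, the shares were 0.193% ± 0.0157, 2.12% ± 0.356 and 1.13% ± 0.143. These 3 members were picked liver by liver and can differ between livers. Among the APAP livers, replicate 3 held the highest value for 59 of the 150 members. Among the MDA livers, replicate 2 did so for 57, and among the Ctrl livers replicate 5 did so for 61. A median log2 ratio to the Ctrl mean was also taken over all transcripts passing the filter. By it, APAP replicate 3 (0.767) and Ctrl replicate 5 (0.247) were again the highest of their groups. Of the MDA livers, replicate 3 (0.639) was then above replicate 2 (0.606). How often each liver was highest over all transcripts was not counted, so these counts are not read as a trait of the members.

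**Figure D1:**
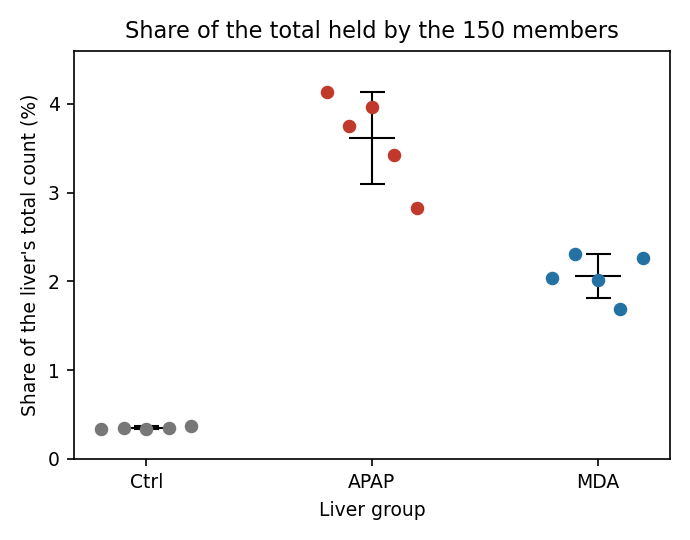
Share of each liver's total estimated count (in percent, y axis) held by the 150 members, by liver group (x axis). Points are livers, bars the mean ± SD of 5, and the groups lie at 0.337% to 0.375% (Ctrl), 2.83% to 4.13% (APAP) and 1.69% to 2.30% (MDA).

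The centred log2 ratio of the members had a median of 2.13 after APAP (range 1.13 to 8.33) and of 1.67 after MDA (range 1.14 to 4.38). Both ratios were at least 2 in 35 members and at least 3 in 11. The smaller of the ratios ran from 4.28 at rank 1 to 1.13 at rank 150. The 5 members just inside the limit had smaller ratios between 1.13 and 1.15, and the 5 transcripts just outside had 1.11 to 1.13, so the limit cuts through a continuous run. In edgeR's quasi-likelihood test with Benjamini-Hochberg adjustment, 129 members were called higher after APAP, where 20.3% of all 13482 transcripts were. After MDA, 127 members were called, against 10.6% of all transcripts, and 125 were called after both, against 5.5%. All 5 APAP livers lay above all 5 Ctrl livers for 130 members (40.6% of all transcripts), and all 5 MDA livers did so for 124 (28.8%). For 120 members all 10 treated livers lay above every Ctrl liver (19.6%). These counts restate the choice of members and nothing is read from them.

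Most members were scarce in control livers. The Ctrl mean was under 1 CPM for 41 members and at least 10 CPM for 39, and its median was 2.62 CPM, against 35.4 CPM in the APAP and 24.0 CPM in the MDA livers. Over all 13482 transcripts the medians were 5.72, 9.83 and 8.72 CPM. In 12 members every Ctrl liver held at most 3 counts, which was so for 0.608% of all transcripts. Members also varied more between livers of a group than transcripts in general. Their median coefficient of variation was 42.9% in Ctrl, 44.1% in APAP and 29.4% in MDA livers, against 27.97%, 24.4% and 21.3% over all transcripts. Their lower Ctrl level, given above, went along with the first of these, and its part was not tested. These levels and this spread come from the livers that chose the members, so nothing is read from them.

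The member ranked 1, ENSRNOT00000018776, was near 0 in Ctrl livers, with 0.562, 0, 0, 0.669 and 0.166 CPM in replicates 1 to 5. The APAP livers held 509.7, 163, 391, 2.59 and 18.9 CPM and the MDA livers 3.24, 4.96, 77.5, 74.1 and 5.66 CPM. All treated livers were above all Ctrl livers, but within each treated group some livers were over 10 times higher than others. Its centred log2 ratios were 6.80 and 4.28. The member ranked 2, ENSRNOT00000047126, was far more even. It had 0.0257 to 0.267 CPM in Ctrl, 86.9, 46.2, 121, 25.3 and 65.0 CPM in APAP and 30.99, 31.8, 30.3, 16.6 and 16.1 CPM in MDA livers, and only 1 APAP liver lay within the range of the MDA livers. Its ratios were 5.37 and 4.11.

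The largest APAP ratio of the group, 8.33, belonged to the member ranked 3. Its Ctrl livers held at most 1.02 CPM, its APAP livers 379, 241, 2207, 256 and 667 CPM and its MDA livers 28.2, 43.5, 28.3, 21.3 and 19.1 CPM. APAP replicate 3 alone made up 58.9% of the APAP sum, and the other APAP livers were still all above the MDA livers. The member ranked 4 had 1.24 to 3.13 CPM in Ctrl, 63.9 to 144 CPM in APAP and 33.3 to 83.7 CPM in MDA livers, and the treated groups overlapped. The member ranked 7 was nearly equal after both toxicants, at 2.67 ± 1.47 CPM in Ctrl, 61.1 ± 40.5 CPM in APAP and 59.3 ± 13.4 CPM in MDA livers (SD, n = 5). For the member ranked 8 the means were 1.75 ± 0.716, 117 ± 61.6 and 38.0 ± 12.7 CPM.

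Some highly ranked members were listed at 0 in all Ctrl livers. The member ranked 6 had 5.90, 22.5, 40.0, 9.22 and 9.12 CPM in APAP and 10.9, 8.29, 16.9, 21.6 and 14.9 CPM in MDA livers. Against a floor of 3 counts per Ctrl liver, which averages 0.256 CPM, its means were at least 67.6-fold higher after APAP and at least 56.7-fold higher after MDA. The member ranked 5 was also at 0 in the Ctrl livers, but so it was in 2 APAP and 3 MDA livers, while the remaining treated livers held 23.6 to 63.0 CPM. Of the 9 members at 0 in every Ctrl liver, 5 were at 0 in at least 1 treated liver too, and 16 of the 150 members had such a liver. Shares over all transcripts were not taken for these counts, so nothing is read from them.

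**Figure D2:**
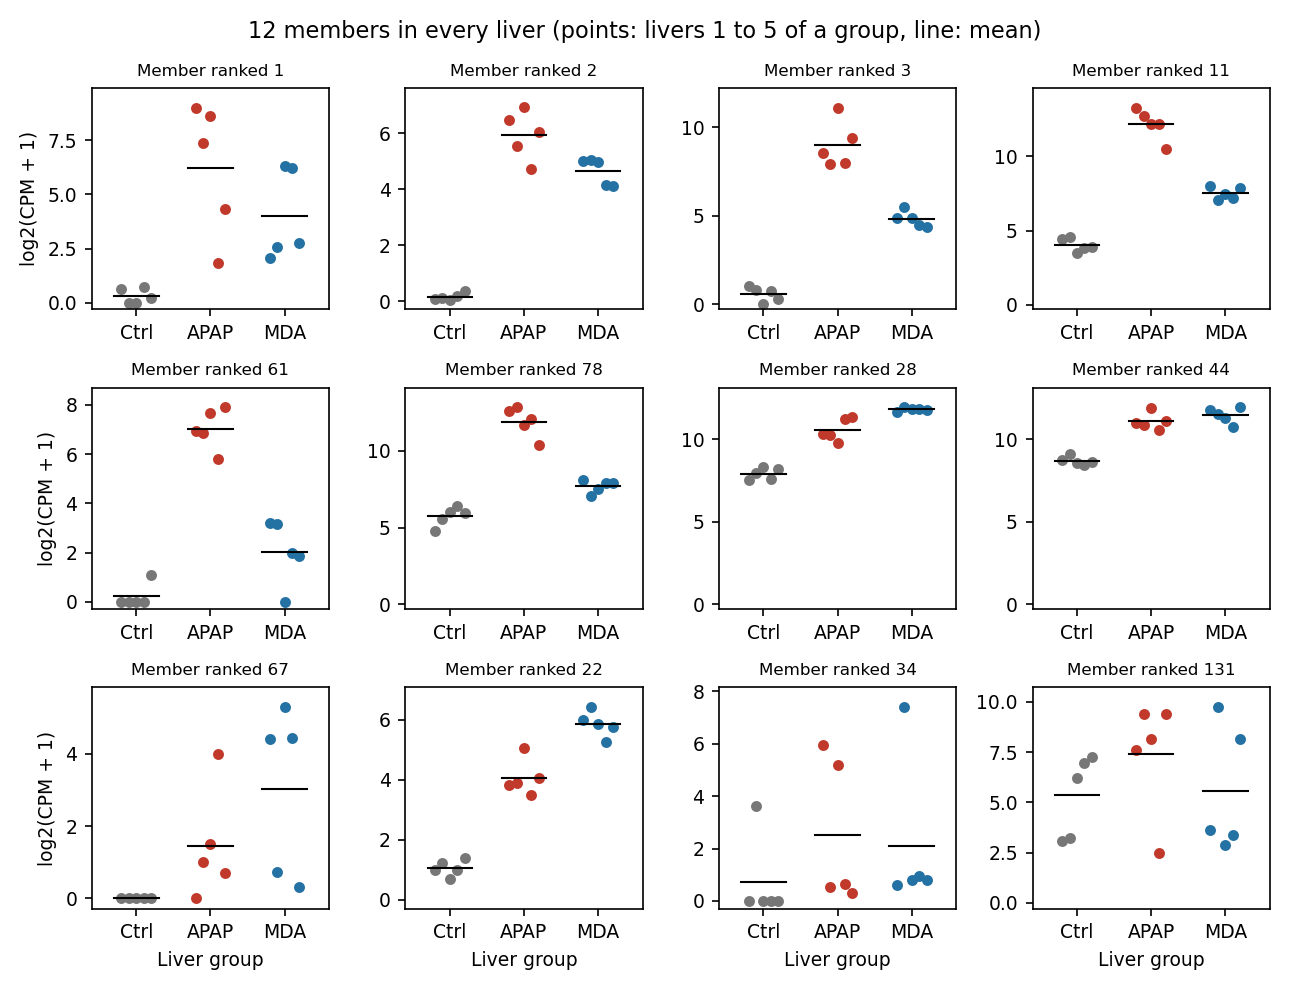
log2(CPM + 1) of 12 members (panels, y axes of their own) in the 5 Ctrl, 5 APAP and 5 MDA livers, as points in replicate order, with the group mean of the log2 values as a line. The members ranked 2, 3, 11 and 78 separate treated from Ctrl livers, while those ranked 34 and 131 are high in some livers of each group and low in others.

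Some members were abundant in control livers already. The Ctrl mean was at least 100 CPM in 8 members. The highest, ranked 98, had 845, 763, 805, 874 and 742 CPM in Ctrl, 3864, 5535, 4158, 2489.7 and 2853 CPM in APAP and 3055, 2700.1, 2610.4, 1905 and 3623 CPM in MDA livers. Its means were 4.69-fold and 3.45-fold those of Ctrl, with no overlap of treated and Ctrl livers. The member ranked 44 was 5.45-fold higher after APAP and 6.97-fold higher after MDA, from 416 ± 78.7 CPM in Ctrl to 2271 ± 893 and 2902 ± 878 CPM. The member ranked 88 went from 343 ± 60.3 CPM to 2673 ± 605 CPM after APAP and 1242 ± 209 CPM after MDA. All 3 kept treated livers above every Ctrl liver. These folds are of CPM before centring and so include the median shifts given above.

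Members differed widely in which toxicant gave the higher level. The difference of the centred ratios, APAP minus MDA, ran from -2.03 to 4.70 with a median of 0.29. APAP was the higher in 94 members and MDA in 56. The ratios lay within 0.5 of each other in 61 members, APAP led by at least 1 in 45 and MDA led by at least 1 in 11. All 5 APAP livers lay above all 5 MDA livers in 36 members (15.4% of all transcripts), and the reverse held in 8 members (8.82% of all transcripts). The ratios share their Ctrl livers and chose the members, so neither share was tested.

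**Figure D3:**
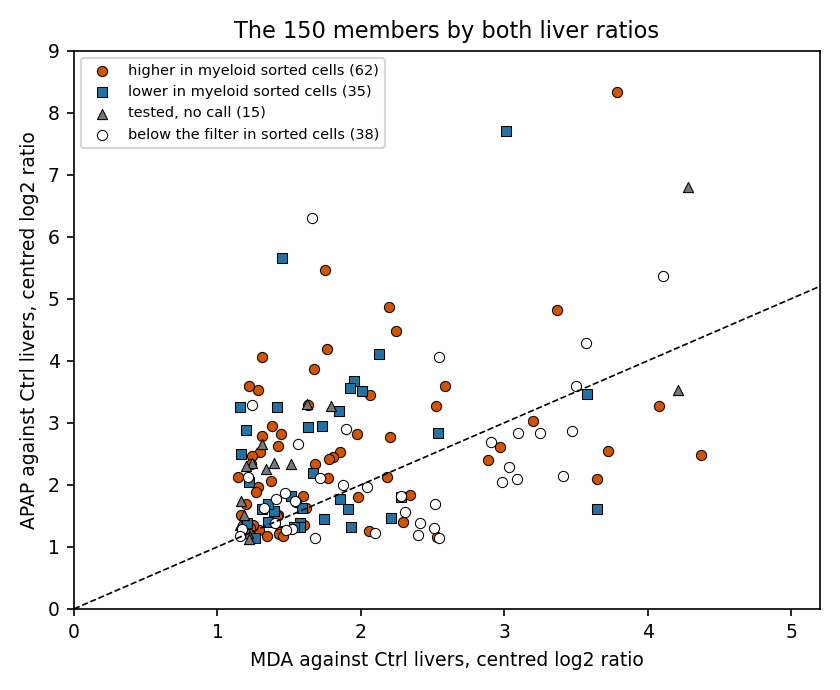
Centred log2 ratio after MDA (x axis) and after APAP (y axis) for the 150 members, with equal ratios on the dashed line. Symbols give the call in sorted untreated immune cells, and 94 members lie above the line, up to 8.33 on the APAP axis against at most 4.38 on the MDA axis.

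The strongest lean toward APAP was in the member ranked 11. Its Ctrl livers held 20.4, 23.1, 10.3, 13.1 and 13.8 CPM, its MDA livers 261, 134, 174, 146.2 and 228 CPM and its APAP livers 9940.1, 6805, 4565, 4685 and 1414 CPM. The 3 groups did not overlap, and its APAP mean of 5482 CPM was the highest of all members. The member ranked 78 had the same order of groups, with 26.9 to 84.1 CPM in Ctrl and 131.2 to 276 CPM in MDA livers. Its APAP livers held 6018, 7229, 3243, 4234 and 1326 CPM, and replicate 5 was the lowest, as for the member ranked 11. The member ranked 29, at 113 ± 19.97 CPM in Ctrl, 2997 ± 1682 CPM in APAP and 686 ± 138 CPM in MDA livers, was instead lowest in APAP replicate 3 and highest in replicate 4. The APAP livers thus had no common order across these 3 members.

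Lower in abundance, the member ranked 61 was at 0 in 4 Ctrl livers and at 1.12 CPM in the fifth. It had 122, 116, 201, 55.3 and 239 CPM in APAP livers but only 8.25, 7.82, 0, 2.92 and 2.59 CPM in MDA livers, and 1 MDA liver was thus at 0. The member ranked 54 was at 239 ± 182 CPM in APAP and 15.5 ± 2.001 CPM in MDA livers, from 2.56 ± 1.37 CPM in Ctrl.

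The lean toward MDA was smaller. The most abundant MDA-leaning member, ranked 28, had 186, 246, 319, 191 and 293 CPM in Ctrl, 1290.4, 1240.1, 865, 2373 and 2619 CPM in APAP and 3274, 3930.0, 3699, 3695 and 3516 CPM in MDA livers. No value overlapped between the 3 groups, and the MDA livers were the most even. The member ranked 32 had the same order, at 119 ± 13.5, 775 ± 249 and 1403 ± 121 CPM. At lower levels, the member ranked 22 had 0.613 to 1.64 CPM in Ctrl, 10.3 to 32.3 CPM in APAP and 37.5 to 85.7 CPM in MDA livers, and its MDA ratio of 4.38 was the highest of all members. For the member ranked 31 the means were 0.510 ± 0.464, 8.83 ± 3.15 and 24.9 ± 7.11 CPM. The member ranked 67 had the largest difference in favour of MDA, but its values were uneven, with 0 to 14.9 CPM in APAP and 0.225 to 38.8 CPM in MDA livers.

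**Figure D4:**
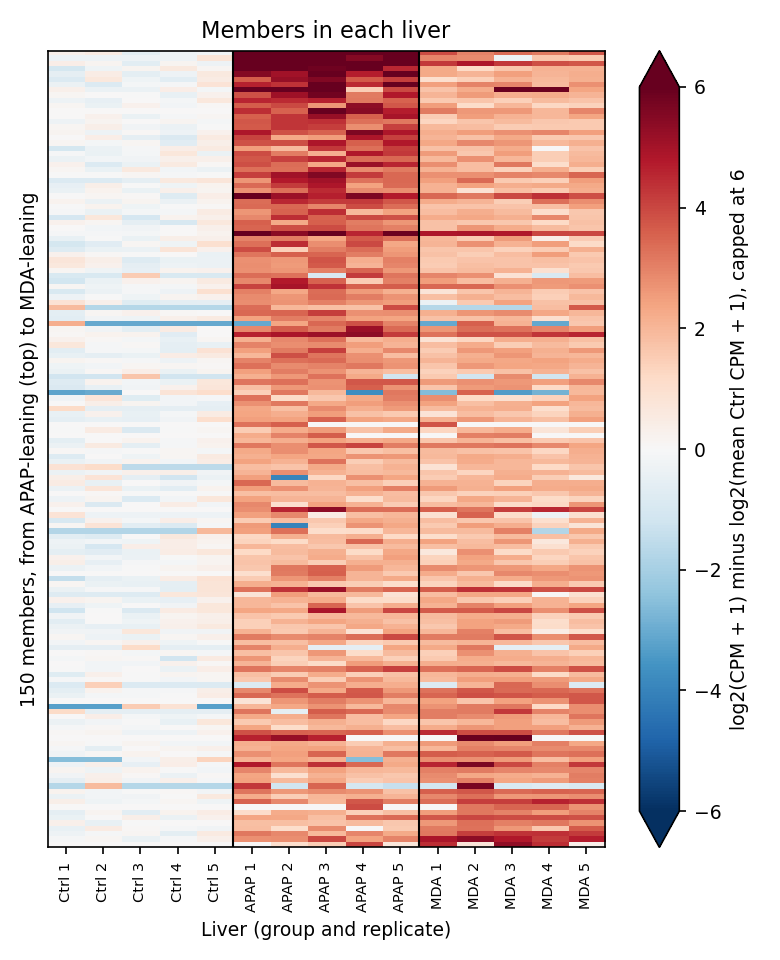
log2(CPM + 1) of each liver minus log2 of the mean Ctrl CPM + 1 (color, capped at 6), for the 150 members (rows, from the most APAP-leaning to the most MDA-leaning) in the 15 livers (columns). Treated livers are higher almost throughout, with blue or pale cells where a treated liver stood at or below the Ctrl mean.

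In 13 members a single liver held most of the APAP or the MDA sum. Over 50% of the APAP sum lay in 1 liver for 6 members and over 50% of the MDA sum for 10 members. How many of all transcripts were as uneven was not counted, so these counts are not read as a trait of the members. In the member ranked 34, MDA replicate 2 held 169 CPM and the other MDA livers 0.541 to 0.919 CPM, while 2 APAP livers held 61.0 and 35.3 CPM and 1 Ctrl liver 11.3 CPM. The member ranked 94 was at 12.6 CPM in MDA replicate 1 and at 0 in the other MDA livers. The member ranked 105 was at 13.9 CPM in APAP replicate 4 alone, and 4 of its MDA livers held 5.49 to 10.4 CPM. In the member ranked 131 low and high livers occurred in every group, with 7.36 to 150.4 CPM in Ctrl, 4.67 to 668 CPM in APAP and 6.25 to 857 CPM in MDA livers. In these 4 members the treated and Ctrl livers overlapped or shared zeros.

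The levels of the members in immune cells are independent of the choice. Of the 150 members, 93 had a mean of at least 1 CPM in all 8 immune sample groups, or 62.0% against 77.8% of all 13482 transcripts. Another 31 members, or 20.7% against 12.8%, were under 1 CPM in all 8 groups. Of these, 8 members were at 0 in all 46 immune samples, as 2.82% of all transcripts were. They included the members ranked 4, 6, 34 and 98, and the last of these had the highest level in control livers of all members. A value of 0 allows up to 3 counts in a sample, and these limits cover counting error only. The members ranked 2, 28 and 32 were likewise under 1 CPM in every immune group. For the member ranked 2 the highest of the 46 values was 0.0750 CPM, in a spleen sample.

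Among the 31 members under 1 CPM in immune samples MDA gave the higher centred ratio in 17 and APAP in 14, with medians of 1.96 (APAP) and 2.10 (MDA). Among the 93 members present in all immune groups, APAP gave the higher ratio in 66 and MDA in 27, with medians of 2.19 and 1.55. This difference in lean was not tested, since the livers chose the members.

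**Figure D5:**
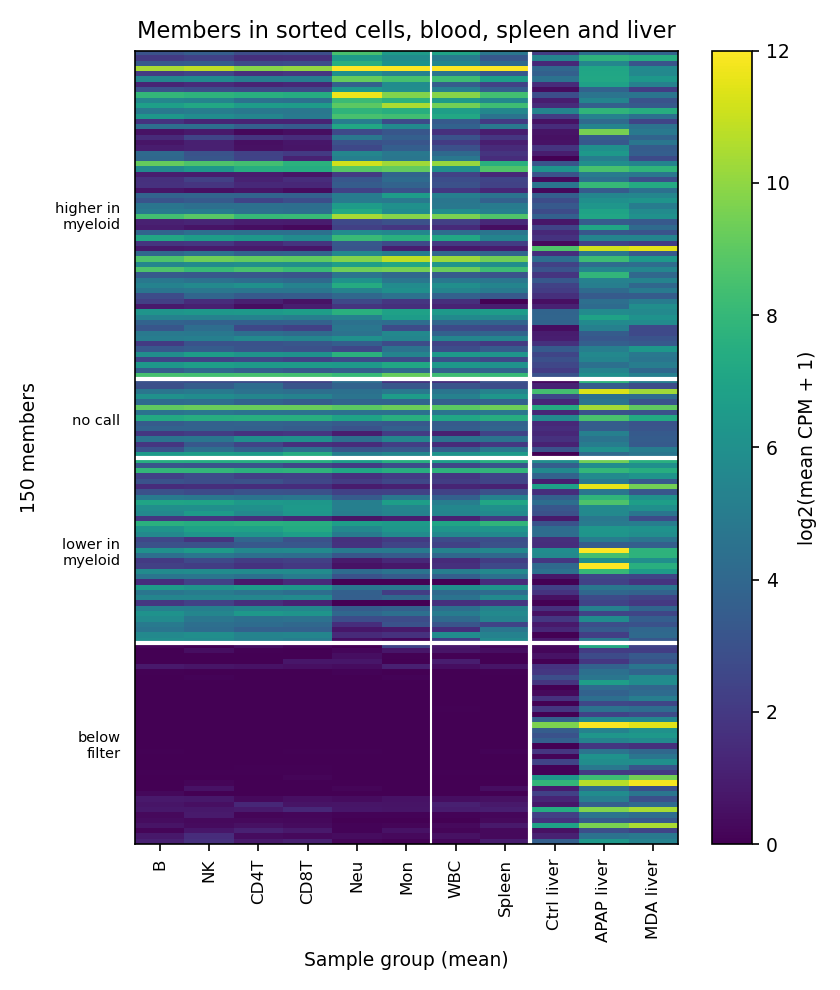
log2(mean CPM + 1) (color) of the 150 members (rows) in the 8 immune sample groups and the 3 liver groups (columns). Rows are grouped by the call in sorted cells (62 higher in myeloid, 15 without a call, 35 lower in myeloid, 38 below the filter). In the last block 31 of the 38 members are under 1 CPM in all 8 immune columns, and the highest immune mean there is 4.33 CPM.

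To place the members among immune cells, the 12 myeloid samples (neutrophils and monocytes) were compared with the 24 lymphoid samples (B, NK, CD4 T and CD8 T cells). Of the 150 members, 112 reached a mean of 1 CPM over the 36 sorted samples and were tested with all 14172 transcripts that did so. In edgeR's quasi-likelihood test at an adjusted p of 0.05, 62 members were higher in myeloid cells, or 55.4% of those tested against 34.9% of all tested and 37.3% of those also kept in the livers. Another 35 were lower, or 31.2% against 44.2% and 42.6%. The median log2 difference, myeloid minus lymphoid, was 0.55 over these members and -0.12 over all transcripts tested. Since 8 of the tested members were under 1 CPM in lymphoid and 6 under 1 CPM in myeloid cells, the filter itself can make a member differ. Of the 98 members at or above 1 CPM on both sides, 54 were higher and 29 lower, or 55.1% and 29.6%. Of the 12823 transcripts that passed the same limit, 36.1% were higher and 42.3% lower (38.0% and 41.3% of those kept in the livers). All myeloid samples came from blood and all lymphoid samples from spleen, so the cell class and its source cannot be told apart.

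Neutrophils were the sorted type with the highest mean for 39 of the 112 members, or 34.8% against 14.08% of the transcripts kept in livers and tested. Monocytes were the highest for 28 members, or 25.0% against 27.0%, and NK cells for 18, or 16.1% against 19.6%. B cells were the highest for 12 (10.7% against 7.48%), CD8 T cells for 9 (8.04% against 13.5%) and CD4 T cells for 6 (5.36% against 18.4%). Specific was used for a transcript higher than in each of the other 5 types at an adjusted p under 0.05 (edgeR). By this measure 27 members were specific to neutrophils, or 24.1% against 15.4% of all tested and 16.8% of those kept in the livers. Monocytes had 9 specific members (8.04% against 7.25% and 7.79%). NK cells had 1 (0.893% against 1.93% and 1.39%) and B cells 1 (0.893% against 1.64% and 1.27%). CD4 T cells had 0, against 0.31% and 0.247%, and CD8 T cells 0, against 0.134% and 0.0794%. At an unadjusted p of 0.05 in edgeR, CD4 T cells had 1 and CD8 T cells 2 such members, and DESeq2 and limma with adjustment gave 0 for both. The neutrophil count depended on the method. With scaling by library totals alone, 19 members were specific to neutrophils and 14 to monocytes, with limma 20 and 16, and with DESeq2 27 and 10. Shares over all transcripts were not taken under these settings, so whether the higher neutrophil share holds there was not tested. In all, 38 members were specific to a sorted type, against 26.7% of all tested.

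The neutrophil-specific member of highest level, ranked 120, had 14629 to 24265 CPM (median 19451) in neutrophils and 11007 to 15449 CPM in monocytes. In the lymphoid cells it had 213 to 2839 CPM, and it was 3.86 ± 0.21 (SE) higher on the log2 scale in myeloid cells (edgeR, adjusted p = 8.0e-18). Neutrophils exceeded monocytes by only 0.87 ± 0.34 (edgeR, adjusted p = 0.040), so its call as specific was close to the limit. Its levels in liver were far lower, at 15.1 ± 7.13 CPM in Ctrl, 134 ± 75.3 CPM in APAP and 51.4 ± 10.9 CPM in MDA livers. The member ranked 137 had 3361 ± 436 CPM in neutrophils (SD, n = 6) and 854 ± 152 CPM in monocytes, against 171 to 244 CPM as the means of the lymphoid types. It differed by 2.39 ± 0.19 on the log2 scale between neutrophils and monocytes (adjusted p = 1.8e-12, edgeR). In the livers it had 6.19 ± 1.70, 23.8 ± 8.69 and 24.1 ± 7.46 CPM. The member ranked 36 had 1338 ± 118 CPM in neutrophils, 894 ± 118 CPM in monocytes and 11.6 ± 2.55 CPM in Ctrl livers.

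The largest log2 difference toward myeloid cells was 4.91 ± 0.17 (adjusted p = 4.1e-23, edgeR), in the member ranked 72. It had 94.3 ± 28.2 CPM in neutrophils, 56.6 ± 12.7 CPM in monocytes and 2.03 to 4.02 CPM as the means of the lymphoid types. Its treated liver means, 213 ± 145 CPM in APAP and 171 ± 36.2 CPM in MDA livers, were above its neutrophil mean, and its Ctrl liver mean, 41.7 ± 10.9 CPM, was below it. The member ranked 140 differed by 4.82 ± 0.17 (adjusted p = 1.2e-22, edgeR) and had 359 ± 51.4 CPM in neutrophils but only 3.56 ± 1.33 to 18.9 ± 5.28 CPM as the means of the liver groups.

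The member ranked 1 was specific to neutrophils, at 17.9 ± 6.74 CPM against 2.47 ± 1.02 CPM in monocytes (log2 difference 3.24 ± 0.61, adjusted p = 4.3e-05, edgeR). It was not called higher in myeloid than in lymphoid cells (log2 difference 0.35 ± 0.35, adjusted p = 0.37, edgeR). The abundant liver member ranked 44 was specific to neutrophils too, at 7.75 ± 5.19 CPM, a level far below its 416 CPM in Ctrl livers. Specific here ranks the sorted types among themselves and does not place a liver transcript in these cells. Monocytes led in the member ranked 8, with 57.0 ± 8.07 CPM against 11.9 ± 2.21 CPM in neutrophils and 1.26 to 1.79 CPM as the means of the lymphoid types. It was 4.30 ± 0.24 higher on the log2 scale in myeloid cells (adjusted p = 4.0e-17, edgeR). Of the monocyte-specific members, the ranks 63 and 82 had the highest levels, at 1777 ± 121 and 1415 ± 82.8 CPM in monocytes.

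On the lymphoid side, the member ranked 35 had 33.5 to 60.0 CPM as the means of the lymphoid types and 0.345 ± 0.583 CPM in neutrophils and 0.170 ± 0.263 CPM in monocytes. It was lower in myeloid cells by 7.69 ± 0.47 on the log2 scale (adjusted p = 2.1e-16, edgeR), a size that depends on the prior count, since 4 of 6 monocyte and 3 of 6 neutrophil samples were at 0. In the livers it had 0 to 1.87 CPM in Ctrl, 9.97 to 57.3 CPM in APAP and 3.74 to 17.6 CPM in MDA. The member ranked 77 had 12.1 to 24.6 CPM as the means of the lymphoid types, against 0.668 ± 0.445 and 0.776 ± 0.484 CPM in neutrophils and monocytes. The member specific to B cells, ranked 145, had 54.2 ± 19.9 CPM there and 20.5 to 26.0 CPM as the means of the other lymphoid types. The member specific to NK cells, ranked 49, had 8.95 ± 3.49 CPM there, below its 31.7 ± 20.5 CPM in APAP livers. Both calls rested on few samples: no member was specific to B cells without replicate 1, 2 or 6, and none to NK cells without replicate 3, 4 or 6.

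Some members were uneven within a sorted type. The member ranked 10 had 157 and 205 CPM in CD4 T cell replicates 5 and 6, against 24.7 to 36.2 CPM in the other 4. In CD8 T cells replicates 5 and 6 held 114 and 124 CPM, against 19.9 to 26.7 CPM. The member ranked 25 had 13.5 and 11.8 CPM in CD4 T cell replicates 5 and 6, against at most 1.04 CPM in the others. Both members were high in every neutrophil sample, at 129.6 to 448 and 24.7 to 51.6 CPM. What else set these replicates apart was not tested.

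The liver ratios were also set beside the call in sorted cells, as a description. The 62 members higher in myeloid cells had median centred ratios of 2.37 after APAP and 1.63 after MDA, and the 35 lower in myeloid cells 1.83 and 1.63. The 38 members below the filter in sorted cells had 1.98 and 2.19, and the 15 without a call 2.33 and 1.31. Of the 20 members of highest rank, 7 were higher in myeloid cells, 3 lower, 2 without a call and 8 below the filter.

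Transcripts specific to each sorted type were followed in the same livers, with the members left out. The 1871 neutrophil-specific transcripts had median log2 differences from Ctrl of 0.11 after APAP and 0.08 after MDA (edgeR), against 0.05 and 0.02 over all 13482 transcripts. Of the 1871, 23.8% were called higher and 17.4% lower after APAP, against 20.3% and 20.5% of all transcripts. After MDA 13.7% were higher and 9.25% lower, against 10.6% and 11.3%. The 873 monocyte-specific transcripts had medians of 0.01 and 0.08. The medians of the other types lay between -0.26 and 0.10. After APAP 18.4% of the monocyte-specific transcripts were called higher and 20.8% lower. These shares were 13.4% and 28.7% for NK cells, and 9.79% and 24.5% for B cells. They were 14.3% and 35.7% for CD4 T cells, and 33.3% and 33.3% for the 9 CD8 T cell transcripts. After MDA they were 15.1% and 11.1% (monocytes), 12.7% and 11.5% (NK) and 9.79% and 12.6% (B). For CD4 T cells they were then 10.7% and 10.7%, and for CD8 T cells 11.1% and 0%.

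Summed CPM of these transcripts, before centring, was above Ctrl without overlap in at least 1 treated group for 5 of the 6 sets, lymphoid ones included. The neutrophil-specific sum lay between 116553 and 126172 CPM in Ctrl, 123648 and 136817 CPM in APAP and 139909 and 156074 CPM in MDA livers, and the monocyte-specific sum between 20805 and 26879, 28190 and 32738, and 27998 and 33491 CPM. For NK cells the ranges were 4757 to 4908, 5129 to 5770 and 5602 to 6281 CPM. The sums are not corrected for the median log2 shift of all transcripts, 0.61 after APAP and 0.46 after MDA. A sum above Ctrl therefore need not exceed that shift. For the neutrophil and NK sets it did not. There, even the log2 ratio of the highest treated to the lowest Ctrl sum was below the shift of that toxicant. Both treated groups lay above Ctrl for the monocyte, NK and CD8 T cell sets. The MDA livers alone did so for the neutrophil set and the APAP livers alone for the CD4 T cell set, while for the B cell set all groups overlapped. Since specific only ranks the sorted types among themselves, the sums do not measure how many such cells a liver held. Defining markers of these cells could not be looked up without gene names. The part of immune cell numbers in the levels of the members was not tested. For 60 of the 150 members, at least 1 immune group had a mean above both treated livers' means, and for the other 90 none had. The same count over all transcripts was not taken, so nothing is read from it.

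Spleen cells and whole blood cells, which took no part in the choice of members, were compared as well. The sorted myeloid cells came from blood and the lymphoid cells from spleen. This comparison is therefore not independent of the one in sorted cells. Of 110 members tested, 24 were higher in spleen, or 21.8% against 22.7% of all 13885 transcripts tested and 22.6% of those also kept in the livers (edgeR, adjusted p under 0.05). In whole blood cells 42 were higher, or 38.2% against 23.9% and 24.6%. The median log2 difference, spleen minus whole blood, was -0.20 over these members and 0.02 over all. With library totals in place of normalization by trimmed mean of M values (TMM), the median of all transcripts moved to 0.18, and 35.2% of all transcripts were then higher and 14.7% lower. The members then had 29 higher and 35 lower. The member ranked 9 was at 0 in all 5 spleen samples and at 1.08 to 3.74 CPM in whole blood cells (adjusted p = 2.6e-04, edgeR). The member ranked 25 had 1.12 to 2.97 CPM in spleen and 14.6 to 48.4 CPM in whole blood cells (log2 difference -3.86 ± 0.38, adjusted p = 2.5e-05, edgeR). In the other direction, the member ranked 77 had 25.4 ± 4.26 CPM in spleen and 1.95 ± 1.44 CPM in whole blood cells (log2 difference 3.53 ± 0.34, adjusted p = 2.5e-05, edgeR). The member ranked 35 had 53.2 ± 20.4 and 3.41 ± 4.99 CPM there, with whole blood replicate 5 at 12.2 CPM and the other 4 at 0 to 2.55 CPM. Of these 4 members, those ranked 9 and 25 were also called higher in myeloid cells and those ranked 35 and 77 lower. The 4 were picked as extremes and both comparisons share their sources, so nothing is read from this.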

How the data were processed

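RNA sequencing values of 61 rat samples were used, and 15 livers, 36 sorted samples, 5 spleen samples and 5 whole blood samples entered the comparisons. After read trimming, the authors ran Salmon 1.6.0 against Ensembl cDNA of Rnor_6.0 and read its output with tximport. The deposited values were used as estimated counts: the methods name TPM, but the totals differ between samples. Whether transcript length was divided out is not known, so levels are not compared between transcripts as molecules. All columns were assigned by name (0 unassigned), and 0 sample pairs were identical.

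CPM was the value divided by the sample's total, times 1000000. Counts were rounded for edgeR 4.0.16 in R 4.3.3 (quasi-likelihood test, TMM, mean of at least 1 CPM, Benjamini-Hochberg adjustment over all transcripts tested), with 1 fit for the livers, 1 for the sorted samples and 1 for spleen and whole blood. The SE of an edgeR log2 difference was approximated as its absolute value divided by the square root of the test's F statistic. Alternatives used DESeq2 1.42.0 and limma 3.58.1. Total counts ranged from 3429971 to 14146402, so counting error is largest in neutrophil replicate 5. Procedures were tested on simulated data. The members and lists were chosen with earlier results of these data known. Lists of cell type markers and pathway genes could not be followed without gene names, so at most 2 members are given by identifier and others by rank. Members described in livers were ranks 1 to 10 and, chosen after their values were seen, those that were extreme in level, lean or unevenness. In immune samples they were the extremes of each call.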

Additional observations from a re-analysis of the deposited data

Results flagged for a closer look

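A liver or immune sample was singled out where its distance to the nearest sample of its group exceeded Dixon's critical value for the group's range. About 1 in 20 groups exceeds it by chance, and 48 of the 450 combinations of a member and a liver group did (10.7%). Of the 327 combinations of a described member and a liver or immune group, 33 did.

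Among the APAP livers these were the members ranked 3 (replicate 3, 2207 CPM), 22 (replicate 3, 32.3 CPM), 67 (replicate 4, 14.9 CPM), 72 (replicate 1, 469 CPM) and 105 (replicate 4, 13.9 CPM). Among the MDA livers they were the members ranked 34 (replicate 2, 169 CPM), 83 (replicate 2, 13.2 CPM), 94 (replicate 1, 12.6 CPM) and 97 (replicate 5, 40.7 CPM), and, as low values, 31 (replicate 1, 12.7 CPM) and 72 (replicate 3, 107 CPM). In Ctrl livers the member ranked 7 was high in replicate 5 (5.19 CPM). The other members singled out in Ctrl livers were at 0 in 4 livers and present in 1, namely those ranked 34 (replicate 2, 11.3 CPM), 61 (replicate 5, 1.12 CPM), 75 (replicate 1, 37.1 CPM), 79 (replicate 2, 3.76 CPM), 83 (replicate 1, 1.16 CPM), 97 (replicate 1, 11.3 CPM) and 139 (replicate 3, 6.14 CPM).

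In the immune samples the member ranked 35 was high in replicate 5 of NK cells (112 CPM), CD4 T cells (69.5 CPM), CD8 T cells (79.8 CPM), neutrophils (1.49 CPM) and whole blood cells (12.2 CPM). The member ranked 49 was high in CD8 T cell replicate 5 (4.37 CPM) and low in whole blood replicate 1 (1.34 CPM). The member ranked 2 was at 0 in all but 1 sample of B cells (replicate 1, 0.0211 CPM), neutrophils (replicate 4, 0.0317 CPM) and monocytes (replicate 5, 0.0304 CPM). High single samples were also found for the members ranked 3 in CD4 T cell replicate 5 (0.890 CPM), 7 in neutrophil replicate 5 (1.57 CPM), 9 in neutrophil replicate 3 (11.2 CPM) and 10 in whole blood replicate 3 (213.97 CPM).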

How the results depend on the processing

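The choice of members depended most on the pseudocount: with 0.1 CPM, 79 of the 150 were kept. The other alternatives kept 102 to 147, and 46 members were kept under all 22 alternatives. Leaving out 1 liver at a time kept 131 to 147, and 98 members, with all 20 of highest rank, were kept whichever liver was left out. Other counts stayed within 1.5 times under other scaling, DESeq2, limma, no filter and each replicate left out, except those of types with few specific members: 8 to 16 for monocytes and 0 to 2 for NK, B and CD4 T cells (leaving out 1 replicate could end the single call of NK and of B cells). The other ranges were 127 to 141 members called higher after APAP, 118 to 137 after MDA, 57 to 63 higher and 31 to 39 lower in myeloid cells, 19 to 29 specific to neutrophils, and 18 to 30 higher and 35 to 43 lower in spleen. Without neutrophil replicate 5, chosen after seeing the data as the shallowest, 61 were higher and 34 lower in myeloid cells and 38 specific. With library totals alone, 55.7% of all transcripts were called higher after APAP and 44.1% after MDA.

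The labels give no meaning to the replicate numbers, so the numbers were not taken to pair the samples. Same-numbered samples deviated together (r over 0.1) in 3 of 15 liver pairs, 24 of 90 sorted pairs and 0 of 5 spleen and blood pairs. Of the livers 2 of 15 and of the spleen and blood samples 0 of 10 correlated best with their own number. Of the sorted samples 23 of 36 did, although 5 of the 30 samples of other types share a number. The sorted pairs over 0.1 were 22 of the 36 between lymphoid types (r up to 0.58), 2 of the 6 between neutrophils and monocytes, and 0 of the 48 between the classes. This is a hint from the data, not the design, that same-numbered lymphoid samples share something. The main fit of the sorted cells treated them as independent, so its p-values do not allow for this. With the replicate block, 131 members were called higher after APAP and 129 after MDA, 63 were higher and 34 lower in myeloid cells, 40 were specific, and 21 were higher and 39 lower in spleen.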
